A study of Homo sapiens with 32 samples.

Results

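The 10 genes described here, ATF4, DDIT3, PPP1R15A, TRIB3, ASNS, SESN2, HSPA5, DNAJB9, HERPUD1 and XBP1, belong to the integrated stress response and the unfolded protein response. They were taken by symbol from a table of 32738 gene entries, in which each stands on 1 entry, and all 10 passed the filter on low counts. RNA was counted in HEK293, a cell line long grown in culture that was made from human embryonic kidney. The cells had 0, 5, 15 or 30 min with 4-thiouracil, a sulphur-bearing uracil used as a tag for new RNA. Each time had 2 biological replicates, called cultures here, with 4 libraries per culture. The labels give polyadenylated RNA as the molecule. They name no stress agent. The sample titles begin with the method name TTSeq, but no label says whether RNA with the tag was set apart or how the 0 min cells were handled. Which RNA pool was counted at each time is therefore not known, and a change between times is a change in the share of the counted RNA, not in molecules per cell.

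ATF4 is a transcription factor whose protein is made more efficiently when phosphorylation of the initiation factor eIF2 slows translation in general, as happens when proteins misfold in the endoplasmic reticulum (ER) or amino acids run short. It drives genes of amino acid supply and, with DDIT3 (CHOP), genes of cell death and of feedback. In parallel the ER sensors ERN1 (IRE1) and ATF6 act through XBP1, whose mRNA is spliced in the cytoplasm, and through cleaved ATF6, and raise ER chaperones and degradation factors. Both arms end in mRNAs that are made on demand, and several of these mRNAs are short-lived.

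Counts summed per culture ranged from 776871 to 1396056 in the 8 cultures. Libraries from the same cDNA differed by less than the sampling noise (16 pairs, chi-square per degree of freedom 0.327 to 0.594), and those from different cDNA of a culture by more than it (32 pairs, 1.14 to 2.29). The 4 libraries of a culture were therefore summed and counted as 1 sample (n = 2 per time). Nothing in the labels says how separate the cultures were, so p-values describe these samples only. The test used below estimates the spread over all times and borrows from all genes tested. A small p therefore does not rest on the spread between a gene's own cultures alone. Of the marker genes chosen for HEK293 cells, VIM, KRT8, KRT18, NEFM and STMN1 were detected, with a summed level of 2024 to 2187 CPM (counts per 1e+06 counts, here scaled by TMM, a method that levels the larger part of the genes) at 0 min and 466 to 754 at the later times. Of the blood markers, PTPRC, CD74 and LYZ had 0 counts, as did the liver marker ALB. Counts of the other liver markers, APOA1 and TTR, together went from 2 at 0 min to 42 at 30 min, and their part in the results below was not tested.

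The 10 genes followed several courses. ATF4, DDIT3 and HSPA5 fell steeply from 0 to 5 min and climbed again at 15 and 30 min. ASNS fell and stayed low, and SESN2 rose by 5 min and passed no later test. XBP1, HERPUD1 and DNAJB9 stood higher at 30 min than at 0 and 5 min. PPP1R15A was higher at 30 than at 0 min on few counts, and TRIB3 passed no test. By edgeR's quasi-likelihood test, adjusted over all 10439 genes tested, 4 of the 10 were lower and 1 was higher at 5 than at 0 min, where 26% of all genes were lower and 28.7% higher. From 5 to 15 min 3 were higher and 0 lower (1.03% and 0.517% of all genes). From 15 to 30 min 4 were higher and 0 lower (2.26% and 2.78%), and from 5 to 30 min 6 and 0 (5.88% and 6.52%). From 0 to 30 min 5 were higher and 2 lower (32.1% and 23.8% of all genes). In the comparisons among 5, 15 and 30 min edgeR called 0 of the 10 lower, as did DESeq2, and 0 were lower at an unadjusted p under 0.05. By the plain criterion that the cultures of the times do not overlap, 2 of the 10 were higher and 5 lower at 5 than at 0 min (38.7% and 35% of all genes). From 5 to 15 min 6 were higher and 1 lower (21.7% and 23.1%), and from 15 to 30 min 6 and 0 (24.8% and 25.6%). All 10 were higher and 0 lower at 30 than at 5 min (26.5% and 30% of all genes), and 6 were higher and 3 lower at 30 than at 0 min (45.8% and 31.8%). The genes were proposed with earlier results of these data known, so these shares describe them and are not independent evidence.

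**Figure D1:**
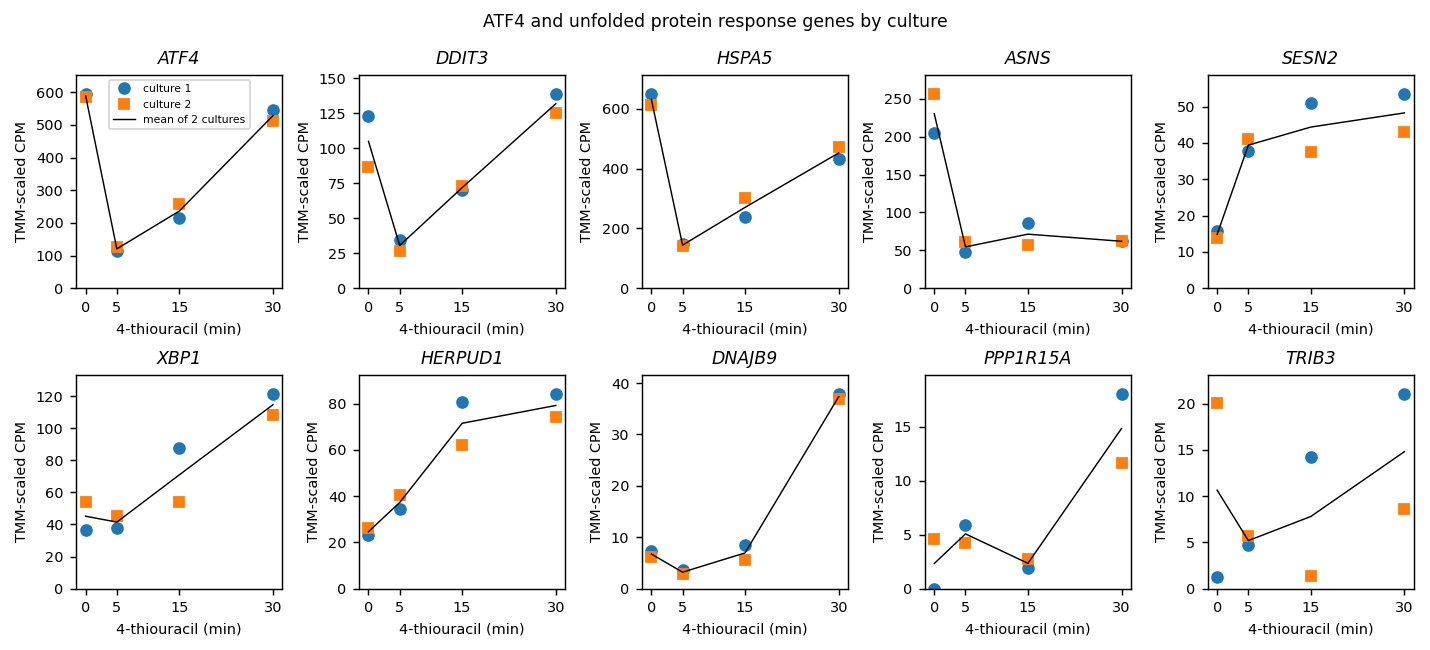
TMM-scaled CPM (vertical axis) of each of the 10 genes against minutes of 4-thiouracil (horizontal axis). Circles are culture 1, squares culture 2 and the line joins the means of the 2 cultures. ATF4, DDIT3 and HSPA5 dip at 5 min and climb, ASNS stays low after 5 min, and DNAJB9 stands between 36.9 and 37.8 at 30 min, above all its earlier values.

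ATF4 stood at 595 and 584 TMM-scaled CPM in the 2 cultures at 0 min and 114 and 126 at 5 min. It then stood at 215 and 257 at 15 min, and 545 and 511 at 30 min. The cultures of one time did not overlap with those of any other, and in such bulk samples fewer cells of a type and less RNA per cell cannot be told apart. On the log2 scale it fell by 2.28 from 0 to 5 min (SE 0.19, adjusted p = 5.68e-12) and was 0.96 higher at 15 than at 5 min (SE 0.19, adjusted p = 0.0026). It was a further 1.16 higher at 30 than at 15 min (SE 0.17, adjusted p = 4.26e-05). The whole climb from 5 to 30 min came to 2.12 (SE 0.19, adjusted p = 1.93e-10), a 4.36-fold higher level. Between 0 and 30 min the TMM-scaled value was -0.16 (SE 0.17, adjusted p = 0.44), while with total counts alone ATF4 was higher at 30 min (0.72, adjusted p = 0.000197). The step from 5 to 15 min did not pass without culture 1 at 5 min (0.90, adjusted p = 0.081).

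DDIT3, the CHOP factor that acts downstream of ATF4, ran along the same course at a lower count. It stood at 123 and 86.5 TMM-scaled CPM at 0 min, 34.2 and 26.8 at 5 min, 70.5 and 73.2 at 15 min, and 139 and 125 at 30 min. Both cultures at 5 min lay below all others. It fell by 1.82 from 0 to 5 min (SE 0.28, adjusted p = 9.2e-07) and rose by 2.13 from 5 to 30 min (SE 0.26, adjusted p = 2.51e-07). Against 0 min its 30 min value was 0.32 (SE 0.23, adjusted p = 0.248). The steps from 5 to 15 min (1.26, adjusted p = 0.00792) and from 15 to 30 min (0.88, adjusted p = 0.0147) both passed but were fragile. The first was lost without culture 2 at 5 min (1.08, adjusted p = 0.144) or at 15 min (1.27, 0.0648), and with 1 library per cDNA (adjusted p = 0.0511). The second was lost without any one of the 4 cultures compared, with values of 0.80 to 0.95, and in DESeq2 (0.80, adjusted p = 0.0603).

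In the reference annotation DDIT3 overlaps the methionyl-tRNA synthetase gene MARS on the other strand, and no source used here says if counting kept strands apart. It also overlaps MBD6 on the other strand, with 82 counts in all. On its own strand it overlaps AC022506.1 and MIR616, which had no entry under these names and which strand cannot part from it. Over both cultures, the MARS entry held 447 counts at 0 min and 191 at 5 min, then 352 and 349 at 15 and 30 min. The MARS counts were thus lower at 5 than at 0 min, as were those of DDIT3, and about equal at 15 and 30 min, where DDIT3 went from 216 to 434. The part of these overlapping genes in the DDIT3 values was not tested. ATF4 and HSPA5 have processed pseudogenes in the human genome that could share reads with them.

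XBP1, the transcription factor of the IRE1 arm, took another course. It stood at 36.3 and 54.1 TMM-scaled CPM at 0 min, 37.8 and 45.2 at 5 min, 87.9 and 54.0 at 15 min, and 121 and 108 at 30 min. The 30 min cultures lay above all others, and those at 0 and 5 min overlapped. The change from 0 to 5 min was -0.08 (SE 0.32, adjusted p = 0.841). From 5 to 30 min XBP1 rose by 1.45 (SE 0.27, adjusted p = 0.000355) and from 0 to 30 min by 1.36 (SE 0.28, adjusted p = 0.000116). Neither step within this climb passed, at 0.76 from 5 to 15 min and 0.69 from 15 to 30 min (adjusted p = 0.195 and 0.11). The second passed with 1 library per cDNA, with only the 2 times in the fit and without culture 1 at 15 min (adjusted p = 0.0184, 0.0147 and 0.0457). The table has 1 entry for XBP1, so its spliced and unspliced mRNA cannot be told apart.

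PPP1R15A (GADD34), which brings a phosphatase to eIF2 and so ends the translational block, was counted rarely. Its raw counts were 0 and 3 at 0 min, 5 and 6 at 5 min, 3 and 4 at 15 min, and 30 and 19 at 30 min. The 30 min cultures were thus the only ones above 6 counts. With 3 counts over both cultures at 0 min and 49 at 30 min, the ratio after scaling was 7.32 (95% counting interval 2.36 to 36.7). The interval treats every count as independent, though libraries of the same cDNA differed by less than sampling noise, so it may be too narrow. The edgeR test gave a rise of 2.78 (SE 1.00, adjusted p = 0.0177). The call was lost in DESeq2 (2.62, adjusted p = 0.0560), without culture 1 at 0 min (1.69, 0.184) and without culture 1 at 30 min (2.44, 0.146). The step from 15 to 30 min was 2.62 (SE 0.84, adjusted p = 0.0639), and passed under 5 alternatives (adjusted p = 0.00456 to 0.0455), among them total-count scaling. TRIB3, a pseudokinase that ATF4 and CHOP induce and that restrains them, had raw counts of 1 and 13 at 0 min, 4 and 8 at 5 min, 22 and 2 at 15 min, and 35 and 14 at 30 min. The 2 cultures of each time lay far apart except at 5 min, and no comparison passed. From 5 to 30 min the value was 1.48 (SE 0.84, adjusted p = 0.272), and from 0 to 30 min it was 0.57 (SE 0.82, adjusted p = 0.575), which became 3.54 (adjusted p = 0.0320) without culture 2 at 0 min.

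The enzymes and regulators that ATF4 induces went opposite ways. ASNS, asparagine synthetase, stood at 204 and 256 TMM-scaled CPM at 0 min, 48.4 and 60.8 at 5 min, 86.0 and 56.8 at 15 min, and 61.9 and 62.1 at 30 min. Both 0 min cultures lay above all later ones, and the 15 min cultures spanned those at 30 min. It fell by 2.05 from 0 to 5 min (SE 0.24, adjusted p = 7.64e-09) and was at 0.16 between 5 and 30 min (SE 0.25, adjusted p = 0.744), so that at 30 min it stood 1.89 lower than at 0 min on the log2 scale (-1.89, SE 0.23, adjusted p = 1.31e-08). SESN2, a sestrin that restrains the growth kinase mTORC1, stood at 15.7 and 13.9 at 0 min, 37.8 and 41.0 at 5 min, 51.1 and 37.6 at 15 min, and 53.4 and 43.0 at 30 min. Every later culture was above both 0 min cultures. SESN2 rose by 1.40 from 0 to 5 min (SE 0.40, adjusted p = 0.0031) and passed no test among the later times (0.29 from 5 to 30 min, SE 0.30, adjusted p = 0.603). With 1 library per cDNA its early rise was 0.92 (adjusted p = 0.0799). From 0 to 30 min it rose by 1.69 (SE 0.38, adjusted p = 0.000289).

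Promoter letters were compared next. RefSeq promoter windows of 300 bases around the annotated start (GRCh38.p14) matched all 10 genes, some with more than 1 start (16 windows). They were searched on both strands for 5 motifs: the ATF4-C/EBP composite TGATGNAA, the ER stress element (CCAAT and CCACG parted by 9 bases), its CCACG part alone, the core TGACGTG of the unfolded protein response element, and the compact second ER stress element (ATTGG and CCACG parted by 1 base). The last was added after the windows had been seen, and a match to either full ER stress element contains CCACG too. The composite stood in 3.62% of all 35116 windows and, among the 10 genes, in those of ASNS and HERPUD1. In the ASNS window (chr7:97872359-97872658, minus strand, 5′ to 3′), shown because ASNS fell and stayed low, capitals mark the composite, which begins 68 bases before the start.
ASNS: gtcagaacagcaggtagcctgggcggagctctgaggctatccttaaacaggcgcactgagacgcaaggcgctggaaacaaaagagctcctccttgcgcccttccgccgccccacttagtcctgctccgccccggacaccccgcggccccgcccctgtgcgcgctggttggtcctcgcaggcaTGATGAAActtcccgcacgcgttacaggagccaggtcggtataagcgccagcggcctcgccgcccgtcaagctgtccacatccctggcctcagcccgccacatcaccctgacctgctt

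HSPA5 (BiP), the main Hsp70 chaperone of the ER and a brake on its stress sensors, moved with ATF4. It stood at 649 and 612 TMM-scaled CPM at 0 min, 148 and 141 at 5 min, 237 and 303 at 15 min, and 432 and 472 at 30 min, and no time overlapped with another. It fell by 2.13 from 0 to 5 min (SE 0.19, adjusted p = 2.31e-11) and rose by 1.65 from 5 to 30 min (SE 0.19, adjusted p = 4.93e-08), a 3.14-fold higher level. The steps were 0.91 from 5 to 15 min (adjusted p = 0.00479) and 0.74 from 15 to 30 min (adjusted p = 0.00701). The first was lost without either culture at 5 min or culture 2 at 15 min (0.76 to 0.94). The second was lost without culture 1 at 15 min or either culture at 30 min (0.57 to 0.81). At 30 min HSPA5 was still 0.48 below 0 min (-0.48, SE 0.17, adjusted p = 0.0175). That call was lost without culture 1 at 0 min (-0.41), without culture 1 or 2 at 30 min (-0.39 and -0.52) and with no filter on low counts (-0.37), and with total counts alone the value turned to a rise of 0.40 (adjusted p = 0.0338).

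DNAJB9 (ERdj4), an ER-resident partner of HSPA5 that also restrains IRE1, rose most from 5 to 30 min among the 10 genes on the log2 scale. It stood at 7.25 and 6.18 TMM-scaled CPM at 0 min, 3.54 and 2.83 at 5 min, 8.40 and 5.47 at 15 min, and 37.8 and 36.9 at 30 min. The raw counts behind these were 6 and 4, 3 and 4, 13 and 8, and 63 and 60. All 4 cDNA preparations at 30 min, at 38.3 to 52.0 CPM of the total, lay above the 12 earlier ones, at 0 to 12.8. DNAJB9 rose by 3.54 from 5 to 30 min (SE 0.59, adjusted p = 8.44e-05), by 2.41 from 15 to 30 min (SE 0.49, adjusted p = 0.00213) and by 2.45 from 0 to 30 min (SE 0.56, adjusted p = 0.000373). The step from 15 to 30 min missed the threshold without culture 2 at 15 min (2.16, adjusted p = 0.0772), without culture 1 at 30 min (2.39, 0.0641) or culture 2 at 30 min (2.42, 0.0532). DESeq2 gave it no adjusted p. In the annotation DNAJB9 overlaps PNPLA8 and THAP5 on the other strand. Between 15 and 30 min their counts went from 118 to 128 and from 5 to 12, while those of DNAJB9 went from 21 to 123.

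HERPUD1, which helps carry misfolded ER proteins to the proteasome, climbed earlier. It stood at 23.0 and 26.3 TMM-scaled CPM at 0 min, 34.2 and 40.3 at 5 min, 80.8 and 62.2 at 15 min, and 84.1 and 74.4 at 30 min. Each of the first 3 times lay above the one before without overlap, and the 15 and 30 min cultures overlapped. The change from 0 to 5 min was 0.62 (SE 0.34, adjusted p = 0.13) and that from 5 to 15 min 0.93 (SE 0.28, adjusted p = 0.0808), which passed without either culture at 0 min and with only the 2 times in the fit (adjusted p = 0.0389 to 0.0434). HERPUD1 rose by 1.07 from 5 to 30 min (SE 0.27, adjusted p = 0.00774) and by 1.69 from 0 to 30 min (SE 0.31, adjusted p = 2.14e-05). The former was lost without culture 1 at 5 min (0.97, adjusted p = 0.0651) or culture 1 at 30 min (0.98, 0.108).

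The ER stress element, which ATF6 and XBP1 bind, stood in the windows of HSPA5 and XBP1 alone among the 10 genes and in 0.0769% of all windows. The compact second element stood in that of HERPUD1 and in 0.0541% of all windows. The letters CCACG, at 38.1% of all windows, was in the windows of ATF4, PPP1R15A, TRIB3, HSPA5, DNAJB9, HERPUD1 and XBP1, and the core TGACGTG, at 1.97%, in none of the 10. A match describes letters only. HSPA5 and XBP1, both with the full element, are shown because both rose from 5 to 30 min, as did HERPUD1. ATF4, DDIT3 and DNAJB9 also rose over that time, and neither full element stood in their windows. The 3 windows with a full element are shown 5′ to 3′, at chr9:125241294-125241593 (minus strand), chr22:28800520-28800819 (minus strand) and chr16:56931892-56932191 (plus strand). Capitals mark the ER stress element in HSPA5, beginning 66 bases before the start, and in XBP1, beginning 52 bases before it. In HERPUD1 they mark the composite read on the other strand (176 bases before) and the second element (117 bases before).
HSPA5: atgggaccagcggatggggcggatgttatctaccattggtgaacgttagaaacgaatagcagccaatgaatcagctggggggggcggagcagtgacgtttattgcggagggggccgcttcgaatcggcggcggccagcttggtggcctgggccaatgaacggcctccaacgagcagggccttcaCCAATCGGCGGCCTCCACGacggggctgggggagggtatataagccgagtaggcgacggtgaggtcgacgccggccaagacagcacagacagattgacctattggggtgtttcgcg
XBP1: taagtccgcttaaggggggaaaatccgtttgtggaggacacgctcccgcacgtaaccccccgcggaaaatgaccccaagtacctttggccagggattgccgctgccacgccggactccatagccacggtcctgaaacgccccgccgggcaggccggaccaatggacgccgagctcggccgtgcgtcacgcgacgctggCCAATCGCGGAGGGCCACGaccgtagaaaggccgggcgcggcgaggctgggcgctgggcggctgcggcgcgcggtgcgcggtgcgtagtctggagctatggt
HERPUD1: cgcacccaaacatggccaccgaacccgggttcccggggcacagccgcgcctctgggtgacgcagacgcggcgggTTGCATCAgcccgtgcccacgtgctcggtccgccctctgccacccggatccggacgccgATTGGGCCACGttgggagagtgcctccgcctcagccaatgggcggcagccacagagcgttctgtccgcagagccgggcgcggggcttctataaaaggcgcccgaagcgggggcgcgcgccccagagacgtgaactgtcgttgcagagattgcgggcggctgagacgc

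Ratios of the counts of 2 genes in the same culture do not depend on how cultures are scaled, and 7 such ratios were taken. They are given as values, without a test. HSPA5 had 109 and 105 counts per 100 ATF4 counts at 0 min, 129 and 111 at 5 min, 110 and 118 at 15 min, and 79.3 and 92.3 at 30 min, so the 30 min cultures were the lowest. DDIT3 had 20.7 and 14.8 per 100 ATF4 counts at 0 min and 29.9 and 21.2, 32.7 and 28.5, and 25.5 and 24.4 at the later times, all above the 0 min cultures. ASNS fell behind ATF4, from 34.3 and 43.9 per 100 at 0 min and 42.3 and 48.0 at 5 min to 11.4 and 12.1 at 30 min. The cultures at 0 and 5 min overlapped in this ratio, and those at 30 min were the lowest.

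Counts of 3 further genes were set against those of HSPA5, which itself fell by 2.13 from 0 to 5 min, a step in which none of the 3 passed a test with TMM scaling. HERPUD1 had 3.54 and 4.29 counts per 100 HSPA5 counts at 0 min, 23.2 and 28.6 at 5 min, 34.1 and 20.5 at 15 min, and 19.5 and 15.8 at 30 min. XBP1 had 5.59 and 8.84 per 100 at 0 min and between 17.8 and 37.1 at the later times. For both, all 6 later cultures lay above the 0 min cultures. DNAJB9 had 1.12 and 1.01 per 100 HSPA5 counts at 0 min, 2.40 and 2.01 at 5 min (on 3 and 4 counts of DNAJB9), 3.54 and 1.81 at 15 min, and 8.76 and 7.81 at 30 min, where it was highest. SESN2 went from 2.64 and 2.38 per 100 ATF4 counts at 0 min to 33.0 and 32.4 at 5 min, and back to 9.81 and 8.41 at 30 min as ATF4 climbed.

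**Figure D2:**
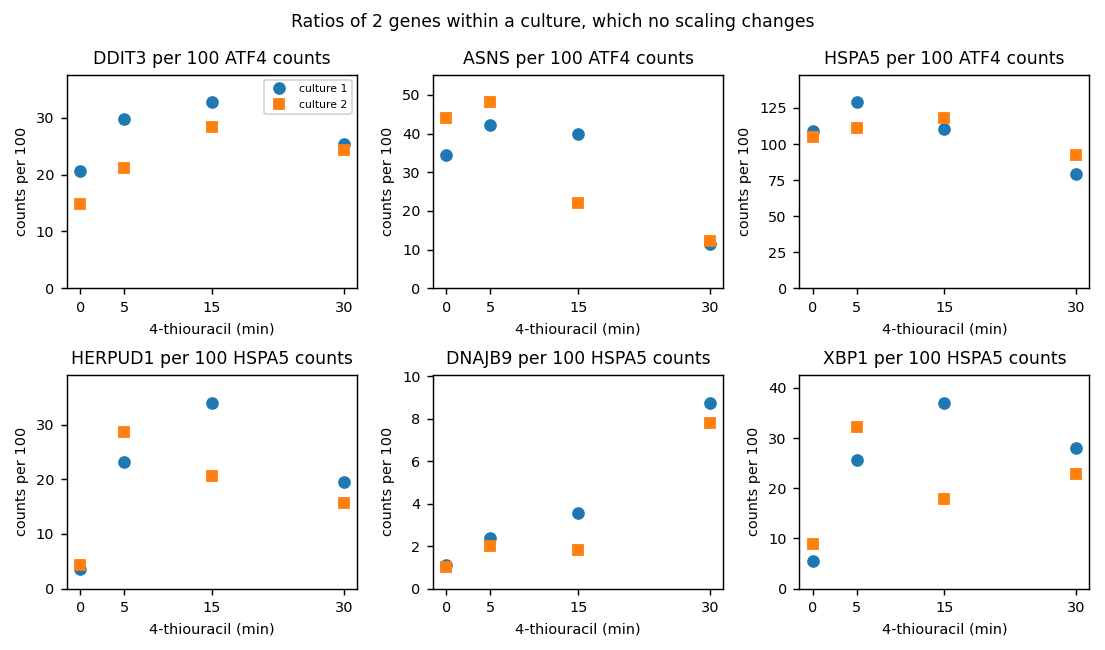
Counts of one gene per 100 counts of another in the same culture (vertical axis) against minutes of 4-thiouracil (horizontal axis), with circles for culture 1 and squares for culture 2. ASNS per 100 ATF4 counts drops to 11.4 and 12.1 at 30 min, and DNAJB9 per 100 HSPA5 counts reaches 8.76 and 7.81 there.

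The comparisons with 0 min depend on the scaling. The median gene tested changed by 0.10 from 0 to 5 min with TMM and 0.35 from 0 to 30 min, against 0.83 and 1.22 with total counts alone. Among the later times that median stayed near 0 (-0.03 and 0.11 from 5 to 30 min). The fall of ATF4, DDIT3, HSPA5 and ASNS from 0 to 5 min passed under both, at -1.55, -1.09, -1.40 and -1.31 with total counts. The change of HERPUD1 over these 5 min passed with total counts only (1.35, adjusted p = 0.00111). From 0 to 30 min ATF4 and HSPA5 turned to rises of 0.72 (adjusted p = 0.000197) and 0.40 (adjusted p = 0.0338), and DDIT3 rose by 1.19 (adjusted p = 4.08e-05). As CPM of the total ATF4 was at 404 and 370 at 0 min and at 650 and 619 at 30 min. All 3 of these values lay below the median gene under that scaling, with DDIT3 closest to it. ASNS, by contrast, was lower at 30 min under both (adjusted p = 0.000368 with total counts). XBP1, HERPUD1, DNAJB9, SESN2 and PPP1R15A were higher at 30 than at 0 min under both scalings.

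**Figure D3:**
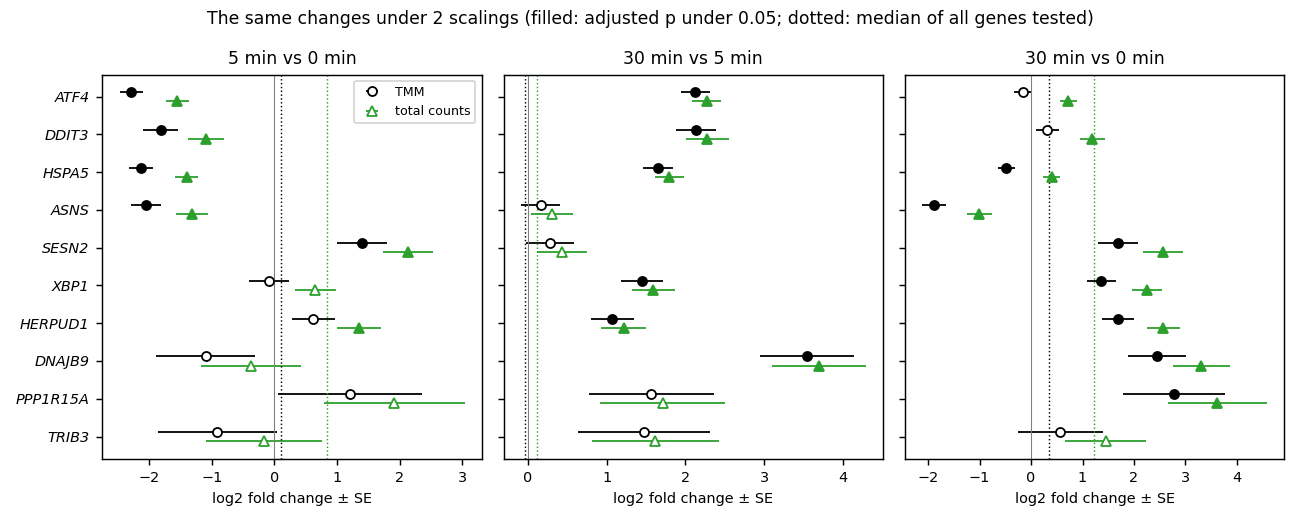
Log2 fold change with its SE (horizontal axis) of the 10 genes in 3 comparisons, with TMM scaling (black circles) and with total counts alone (green triangles). Filled symbols have an adjusted p under 0.05, dotted lines give the median of all genes tested, and ATF4 and HSPA5 cross from below to above 0 in the comparison of 30 with 0 min.

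The other genes of the pathway were described by 4 lists. Their counts stand beside 28.7% of all genes higher and 26% lower from 0 to 5 min, and 5.88% higher and 6.52% lower from 5 to 30 min. Of 28 tested targets of ATF4 and CHOP, 7 rose and 7 fell from 0 to 5 min (25% each, near the shares of all genes; median -0.24). The most abundant, SHMT2 and PSAT1 of serine and glycine metabolism, fell by 2.22 and 1.97, and PCK2, a mitochondrial enzyme of gluconeogenesis, by 2.55. VEGFA, a vascular growth factor, had 3 counts at 0 min and 30 at 5 min, a ratio of 6.52 after scaling. Its 95% counting interval, 2.03 to 33.4, has the limit given for PPP1R15A. From 5 to 30 min ATF3, a transcription factor of the same response, rose by 4.04 (SE 0.30, adjusted p = 3.35e-12), its mean going from 13.3 to 237 TMM-scaled CPM. DDIT4, an mTORC1 inhibitor named after its value was seen, rose by 2.11 (adjusted p = 0.0119), and the other 26 targets did not pass (list median 0.49). edgeR called 0 targets lower there, as did DESeq2 (779 of all 10439 genes lower in DESeq2), and 0 were lower at an unadjusted p under 0.05. With total counts 6 targets rose from 5 to 30 min, where 767 of all genes were higher and 311 lower. From 0 to 5 min 11 targets rose and 4 fell with that scaling, beside 4461 of all genes higher and 1448 lower.

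Of 21 tested ER chaperones and folding enzymes, 12 fell and 3 rose from 0 to 5 min (57.1% and 14.3%, beside 26% and 28.7% of all genes; median -0.84). The isomerase PPIB fell by 2.11 and the lectin chaperone CALR by 2.39, and PDIA6 went from a mean of 878 to 311 TMM-scaled CPM (adjusted p = 1.57e-08). The thioredoxin-domain protein TXNDC11 rose by 2.17, on 3 and 18 counts in the 0 min cultures and 50 and 101 at 5 min. From 5 to 30 min HYOU1, an ER chaperone, rose by 1.02 (adjusted p = 0.0295), and the isomerase FKBP2 and the glycoprotein sensor UGGT1 fell by 1.06 and 0.86, the latter named after its value was seen. Of this list DESeq2 called 0 higher and 3 lower there (367 and 779 of all 10439 genes). With total counts edgeR called 1 higher and 1 lower (767 and 311 of all genes). At an unadjusted p under 0.05, 2 were higher and 3 lower, and all genes were not counted at that threshold. CALR was at -0.20 from 5 to 30 min (adjusted p = 0.558). At 30 min CALR was still 2.59 lower than at 0 min (-2.59, adjusted p = 3.07e-13). With total counts the list split from 0 to 5 min was 7 lower and 5 higher, beside 1448 and 4461 of all 10439 genes. HSPA5, which stands outside this list, rose by 1.65 in the 5 to 30 min comparison, where the list median was -0.17.

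Of 25 tested genes of ER-associated degradation and translocation, 12 fell and 5 rose from 0 to 5 min (48% and 20%, beside 26% and 28.7% of all genes; median -0.42). The translocon subunits SEC61G and SEC61B fell by 1.76 and 1.06 and SSR3 by 2.64. The COPII coat gene SEC24D rose by 2.74, on 9 counts at 0 min and 97 at 5 min. From 5 to 30 min SEC61G alone passed, and fell by 0.61 (adjusted p = 0.0354). With total counts edgeR called 0 of the 25, while DESeq2 called 1 lower, as did an unadjusted p under 0.05. Of 24 tested sensors and regulators, 7 rose and 8 fell from 0 to 5 min (29.2% and 33.3%, near the 28.7% and 26% of all genes; median 0.28). EIF2AK3 (PERK), the ER kinase that phosphorylates eIF2, rose by 4.04 (SE 0.52, adjusted p = 3.66e-08), on 6 counts at 0 min and 150 at 5 min. The eIF2 subunits EIF2S1 and EIF2S2 fell by 1.42 and 1.33 and EIF2B4, of the exchange factor for eIF2, by 2.03. Of these 24 genes, edgeR and DESeq2 called 0 from 5 to 30 min, where 3 were higher and 0 lower at an unadjusted p under 0.05 and 2 were higher with total counts. From 0 to 5 min the splits with total counts were 9 higher and 8 lower for degradation and translocation, and 11 and 4 for sensors and regulators. With that scaling 4461 of all 10439 genes were higher and 1448 lower from 0 to 5 min, and 767 and 311 from 5 to 30 min. DESeq2 called 367 of all genes higher and 779 lower from 5 to 30 min.

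**Figure D4:**
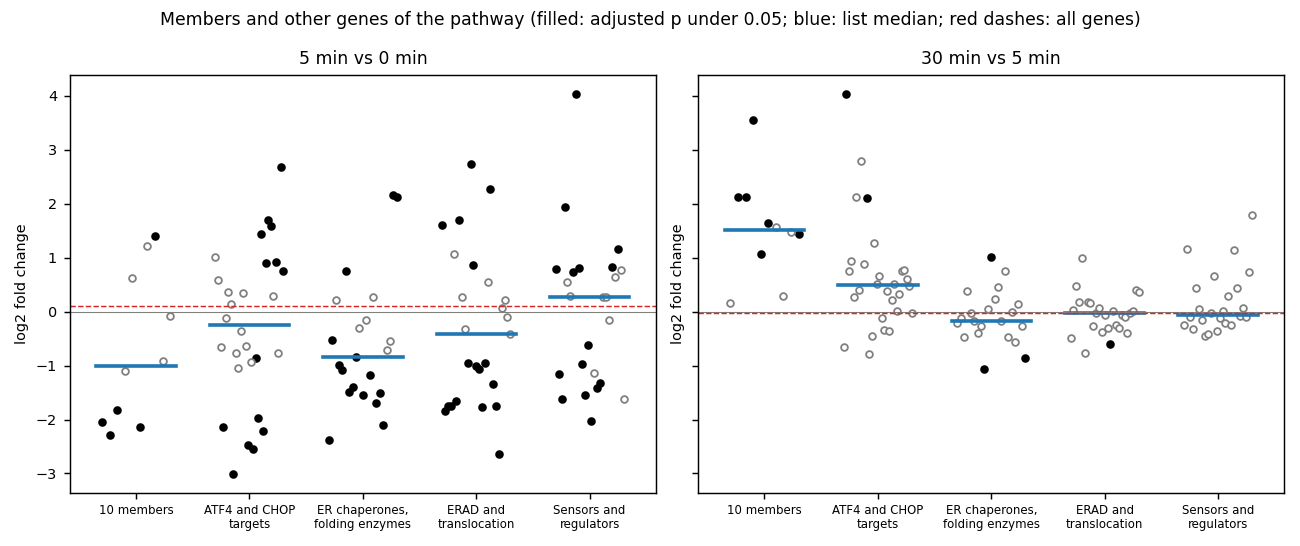
Log2 fold change (vertical axis) of the 10 genes and of 4 other lists of the pathway from 0 to 5 min (left) and from 5 to 30 min (right), 1 point per tested gene, filled where the adjusted p is under 0.05. Blue bars are list medians and red dashes the median of all genes; from 5 to 30 min the bar of the 10 genes stands at 1.52 and those of the other lists between -0.17 and 0.49.

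For 4 of the 10, other genes were ranked by Pearson's r of log2 CPM over the 8 cultures, among 8658 genes with a mean of at least 10 CPM. The cultures share their time points and their depth, and r is given as a description. It takes no account of the size of a change, so nearest means the highest r, not like levels or fold changes. Nearest to ATF4 were MT-ND1, a mitochondrially encoded subunit of complex I, LINC00116 and the histone H3.3 gene H3F3B (r = 0.990, 0.988 and 0.986). TRIAP1 and H3F3B were among the nearest to HSPA5 (0.994 and 0.993). ATF4 and HSPA5 themselves stood at r = 0.983 to each other. Nearest to DDIT3 were KBTBD8, NECAP1 and the splicing kinase CLK1 (0.998, 0.980 and 0.976). XBP1 ran with ADO, KLF10 and the immediate-early gene FOSB (0.975, 0.970 and 0.968). FOSB had means of 1.54 and 0 TMM-scaled CPM at 0 and 5 min, then 4.24 and 35.1 at 15 and 30 min. Within the 10 genes the pairs ranged from r = -0.891 for ASNS with SESN2 to the 0.983 of ATF4 with HSPA5.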

How the data were processed

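RNA of HEK293 cells was counted per gene in 32 sequencing libraries. The authors deposited whole-number counts per gene and library. The aligner was STAR and the build hg19, per the submitters' processing notes. Not given in the sources used here are its version, the counting tool, the use of strand and whether a count is a molecule. Barcodes tied columns to samples, and the 4 libraries of a culture were summed. Differences were tested two-sided with edgeR 4.0.16 in R 4.3.3 (quasi-likelihood, TMM scaling, filterByExpr, 1 fit over 8 cultures, residual degrees of freedom 4). P-values were adjusted by Benjamini-Hochberg over 10439 genes, with a threshold of 0.05. Each SE was taken from the log2 fold change and the square root of its F. The script was tested on simulated data. Alternatives were total-count and RLE scaling, DESeq2 1.42.0, no low-count filter, a replicate block, 1 library per cDNA, only the 2 times compared, and leaving out each culture.

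The 10 genes and the other lists were chosen with earlier results of these data known. The naming rule took from each list the 2 most abundant genes. It also took the largest rise and fall from 0 to 5, 5 to 30 and 0 to 30 min. Each of these had to have an adjusted p under 0.05, no overlap between cultures and a mean of at least 10 CPM. A gene that the rule on likeness named is not reported here. Promoter windows are from RefSeq. Overlapping genes are named from GENCODE, and no coordinates of the counted genes are given because the builds differ.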

Additional observations from a re-analysis of the deposited data

How the results depend on the processing

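With total counts as the only scaling, 2 of the 10 genes were higher from 0 to 5 min, and 8 were higher and 1 lower from 0 to 30 min. Of all 10439 genes, 4461 were then higher and 1448 lower from 0 to 5 min, and 5622 higher and 1331 lower from 0 to 30 min. In the latter ATF4 turned to 0.72 and HSPA5 to 0.40. In DESeq2 2 were higher from 15 to 30 min (DDIT3 was lost and DNAJB9 had no adjusted p), beside 111 of all 10439 genes. With no low-count filter 1 was lower from 0 to 30 min, beside 2283 of 18789 genes. With 1 library per cDNA edgeR called 0 higher from 0 to 5 min (SESN2 was lost), beside 2611 of 8539 genes. The cause of these differences was not tested beyond the scaling itself. Leaving out 1 culture at a time left 1 culture at 1 of the times. The number of the 10 that passed then changed in each comparison but that of 5 with 0 min. Calls over all genes changed in these fits as well, and whether the 10 changed more was not tested. RLE scaling changed no call of the 10.

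The labels do not say whether the replicate numbers pair the cultures. No strong shared effect was seen, with deviations from the time means correlated at r = -0.04 to 0.09 across genes. Counting noise lowers such an r, so it cannot settle the pairing. A replicate block changed no call of the 10, with 4 lower and 1 higher from 0 to 5 min and 6 higher from 5 to 30 min. Depth limits PPP1R15A, TRIB3 and DNAJB9, which had 70, 99 and 161 counts over all 8 cultures. Counting intervals cover counting error only. They treat counts from libraries of the same cDNA as independent, so they may be too narrow.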
